A study of Homo sapiens with 32 samples.

Results

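Among 18980 coding genes listed for RH4, a cell line long established from a human alveolar rhabdomyosarcoma, 506 had a symbol made of ZNF, a number and at most 1 letter. The 348 of these with a mean of at least 8 CPM over the 4 control libraries are described here. CPM is the count scaled so that the coding rows of a library sum to 1000000. The 158 ZNF genes below that limit and 9453 other coding genes at or above it serve as comparison. The control libraries chose the members, so their levels in DMSO and NT are a description. All 348 passed the filter on low counts in every fit.

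Cells were given compounds directed at the lysine acetyltransferases CBP and p300, and total RNA was sequenced. Each of A485, dCBP, IHK-44 and JQAD was used at 2 doses, 100 nM and 1000 nM, and sampled after 2 h and 6 h, giving 16 treated libraries. The controls were the solvent DMSO and NT, an abbreviation left unexplained in the labels, with 1 library each per time. A485 is known as a catalytic inhibitor of both acetyltransferases, and dCBP and JQAD are names of degraders. IHK-44 is known here only by its code name. All 20 libraries carry the same run tag in the labels, and each condition was sequenced once. The 4 libraries of a compound (2 doses at 2 times) stood in for replicates, so the p-values measure the spread among these libraries. That spread holds differences between doses and between times, and the rest of it may be technical. The RNA was bulk, so fewer cells with a transcript and less of it per cell cannot be told apart.

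ZNF genes make up the largest family of human transcription factors, and many of them sit in gene clusters on chromosome 19. Most carry a KRAB domain, which binds the corepressor TRIM28 and through it the histone methyltransferase SETDB1, and silences mobile elements and other targets. Their transcripts are known as low in level and short-lived. Other members lack a KRAB domain and act as activators, as parts of corepressor complexes or on RNA. The deposited values do not measure half-lives, and no table of protein domains was used, so members are not split by KRAB domain below.

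The series title concerns the density of CpG islands, so 4 promoters are shown with each CG in capitals. These are the 250 bases before the RefSeq start on GRCh38.p14, written 5′ to 3′ on the gene's strand. ZNF608 (chr5:124748825-124749074, minus strand, 6 CG) and ZNF804A (chr2:184598279-184598528, plus strand, 27 CG) were among the deepest falls with dCBP and IHK-44. ZNF713 (chr7:55887206-55887455, plus strand, 22 CG) and ZNF620 (chr3:40505789-40506038, plus strand, 14 CG) were among the steepest rises.
ZNF608: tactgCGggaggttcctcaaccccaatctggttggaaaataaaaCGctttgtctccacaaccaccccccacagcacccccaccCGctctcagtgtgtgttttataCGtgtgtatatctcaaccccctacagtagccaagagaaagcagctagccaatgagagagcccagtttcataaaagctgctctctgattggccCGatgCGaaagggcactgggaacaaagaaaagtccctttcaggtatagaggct
ZNF804A: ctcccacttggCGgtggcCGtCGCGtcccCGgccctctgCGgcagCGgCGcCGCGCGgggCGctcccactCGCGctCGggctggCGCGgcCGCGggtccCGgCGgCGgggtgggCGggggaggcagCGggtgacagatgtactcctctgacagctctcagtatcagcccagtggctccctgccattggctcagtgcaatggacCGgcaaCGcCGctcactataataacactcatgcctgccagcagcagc
ZNF713: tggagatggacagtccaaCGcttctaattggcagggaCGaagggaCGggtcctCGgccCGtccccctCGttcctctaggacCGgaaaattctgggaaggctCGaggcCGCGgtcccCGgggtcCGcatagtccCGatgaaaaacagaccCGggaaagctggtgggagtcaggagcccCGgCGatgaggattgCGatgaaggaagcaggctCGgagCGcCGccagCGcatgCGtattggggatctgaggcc
ZNF620: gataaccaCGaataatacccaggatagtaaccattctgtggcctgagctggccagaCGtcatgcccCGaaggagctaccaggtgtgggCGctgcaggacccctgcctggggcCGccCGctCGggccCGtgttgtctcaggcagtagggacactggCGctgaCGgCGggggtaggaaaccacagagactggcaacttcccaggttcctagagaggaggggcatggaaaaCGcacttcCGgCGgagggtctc
The 2 falling genes hold the lowest and the highest CG count of the 4 windows, which are a choice among the named genes. Of those not shown, ZNF641, the steepest rise, had windows of 30 and 13 CG. Among the falls ZNF217 had 25 CG, and ZNF668 had windows of 19, 35 and 2. Over all members with a RefSeq window (393 windows of 300 bases, from 250 before to 50 after the start, for 305 of the 348 genes) the median was 23 CG, against 26 in 11698 windows of the other genes at 8 CPM or more and 14 in all 35116 windows. The GC box letters GGGCGG (or CCGCCC, the other strand) occurred in 61.3% of the members' windows, 67.6% of those of the other genes and 45.0% of all. The TATA-type letters TATAAA (or TTTATA) occurred in 3.82%, 6.21% and 11.5%. The E-box letters CACGTG, which read the same on both strands, occurred in 5.34%, 9.75% and 7.26%.

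Each library held between 13466631 and 16799327 expected counts in coding genes. The muscle markers MYOD1 (27.2 to 747 CPM over the 20 libraries), DES (266 to 465), CDH15 (220 to 454) and FGFR4 (533 to 928) were present. Of 9 identity genes, 6 fell with dCBP against DMSO: MYOD1 (log2 change -1.78, edgeR adjusted p 0.0324), MYOG (-1.73, 0.03), MYCN (-3.55, 0.00196), PAX3 (-1.21, 0.00683), FOXO1 (-1.85, 0.0156) and TFAP2B (-2.54, 0.0183). All of these but MYOG also fell with IHK-44, and none of the 9 passed with A485 or JQAD. Their log2 changes ran from -1.86 (MYCN) to -0.30 (FGFR4) with A485 and from -0.07 (FOXO1) to 0.06 (FGFR4) with JQAD. With 1000 nM A485 MYCN held 6.60 CPM at 2 h and 7.72 at 6 h, against 67.1 and 73.2 in DMSO. The part of these changes of identity genes in the results below was not tested. The leukocyte marker PTPRC (at most 0.060), the epithelial marker EPCAM (0), the endothelial marker PECAM1 (at most 0.708) and the hepatocyte marker ALB (at most 0.872) were at or near 0. Reads outside the coding rows moved with the compounds. They took 6.10% in DMSO and NT, 5.56% with A485, 9.44% with dCBP, 8.89% with IHK-44 and 6.42% with JQAD, and their part in the results below was not tested.

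In the controls the members ranged from 8.11 to 777 CPM with a median of 25.5, against 50.8 for the other genes. Per length, their median was 6.46 FPKM (reads scaled by gene length and depth) against 16.1. The highest per length were ZNF106, an RNA-binding protein needed for motor nerves in mice (64.9 FPKM), ZNF217, an oncoprotein of corepressor complexes (59.2), ZNF428 (57.0), ZNF146, which is built almost wholly of zinc fingers (57.0), and ZNF704, a relative of ZNF395 (51.1). Just inside the limit were ZNF821 at 8.11, ZNF419 at 8.12 and ZNF514 at 8.21 CPM. Just outside were ZNF619 at 7.89, ZNF136 at 7.77 and ZNF23 at 7.75 CPM. In 74 of the 348 members some expected counts were fractions, which means that reads were shared between genes by estimation. ZNF668, ZNF142, ZNF814, ZNF428, ZNF146 and ZNF497 had fractions in every library, and their values are less certain, as are those of near-identical paralogs. ZNF804A had them in 35.0% of its libraries.

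The 348 genes together took a larger share of coding reads with 3 of the 4 compounds. They took 1.52% ± 0.040 (SD, n = 4) in DMSO and NT, with a range of 1.49% to 1.58%. The share was 1.73% ± 0.082 (SD, n = 4) with A485, 1.68% ± 0.088 with dCBP and 1.72% ± 0.024 with IHK-44. It was 1.501% ± 0.061 with JQAD. The libraries of A485 (1.63% to 1.80%) and IHK-44 (1.70% to 1.75%) lay above all 4 controls, those of dCBP (1.56% to 1.76%) overlapped them at the low end, and those of JQAD (1.44% to 1.59%) overlapped them throughout.

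Gene by gene, the same shift showed in each library as the ratio to DMSO of the same time, taken as log2(CPM + 1), which understates the change of low genes. At 2 h the members' median ratio was 0.40 with 1000 nM A485, 0.34 with 1000 nM dCBP and 0.39 with 1000 nM IHK-44, while the other genes stood at 0.04, 0.04 and 0.06. It was -0.03 with 1000 nM JQAD and 0.08 in NT. Each member was then set against the median of the other genes of its own level, in bins of 8 to 16, 16 to 32, 32 to 64 and 64 CPM or more. This lowered the shift to 0.32 with A485, 0.23 with dCBP and 0.28 with IHK-44 at 1000 nM and 2 h, since low genes as a whole rose more than high ones. With these compounds 295, 272 and 282 of the 348 members lay above the genes of their level.

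By 6 h the distance from genes of like level had narrowed with dCBP and IHK-44 and less so with A485. With 1000 nM for 6 h it was 0.19 with A485, 0.08 with dCBP and 0.04 with IHK-44. With 100 nM it was 0.14 with A485, -0.13 with dCBP and 0.09 with IHK-44. NT and JQAD, which show how far it moves without called genes, ran from -0.08 to 0.06. So the 6 h values of IHK-44 at 1000 nM fell inside that range, and dCBP at 100 nM had the lowest value of all libraries, with 146 of 348 members above the genes of their level. JQAD at 1000 nM and 6 h also lay below 0, at -0.08 with 115 of 348 above.

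**Figure D1:**
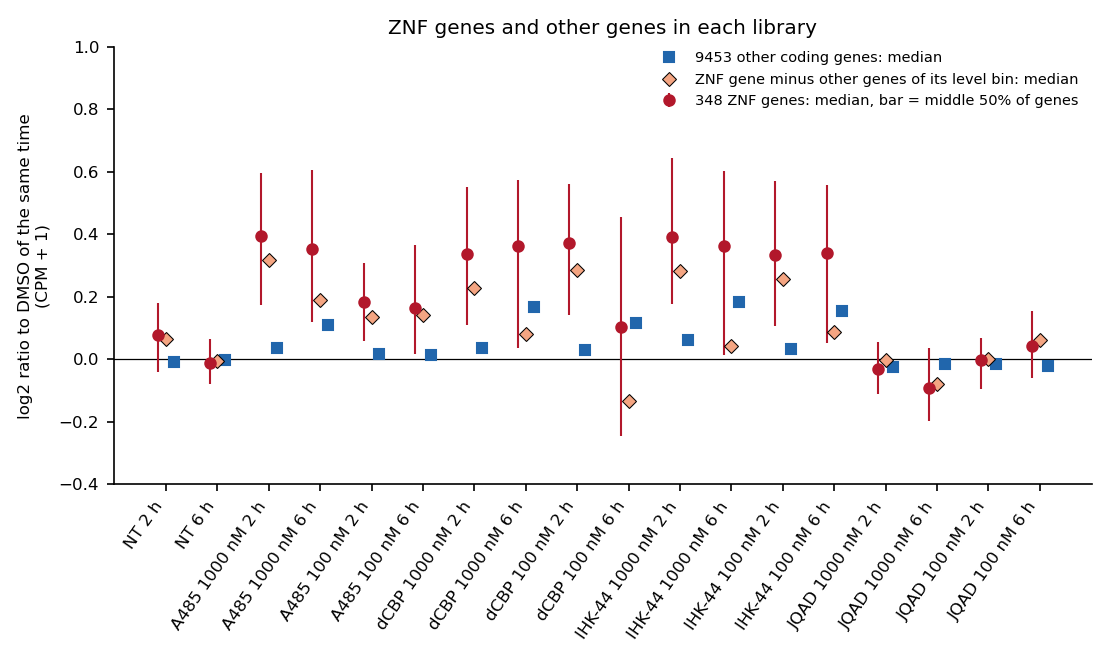
Log2 ratio of each library to DMSO of the same time, on the CPM + 1 scale, for NT and the 16 treated libraries (x axis). Circles are the median of the 348 ZNF genes with a bar over the middle 50% of genes, squares the median of 9453 other genes, diamonds the median of each ZNF gene minus other genes of its level bin. The 2 h diamonds of A485, dCBP and IHK-44 stand between 0.14 and 0.32, while those of NT and JQAD lie between -0.08 and 0.06.

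Few members moved as far as 2-fold in a single library, and no test applies to 1 library. With 1000 nM for 6 h, 6 members were at least 2-fold lower and 9 higher with A485, where 4.15% of all 9801 genes at the limit were lower and 1.1% higher. With dCBP 9 were lower and 13 higher (6.69% and 2.39% of all), and with IHK-44 10 were lower and 15 higher (7.37% and 2.85%). The order of higher and lower members depended on the setting. After rescaling each library to a median of 0 over all genes at the limit, 3 were higher and 6 lower with A485, 5 and 10 with dCBP and 5 and 12 with IHK-44. With a limit of 16 CPM it was 2 and 4, 5 and 9, and 4 and 10, and on TPM 38 and 3, 2 and 10, and 0 and 14.

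Across the 4 libraries of each compound and with counts scaled by TMM over coding genes, more members were higher than lower against DMSO. With dCBP and IHK-44 this direction depended on the scale and turned on TPM, as given below. The quasi-likelihood test of edgeR, adjusted by Benjamini and Hochberg's method over all 13260 genes tested, called 88 members higher and 16 lower with dCBP at an adjusted p under 0.05. Of all tested genes 11.8% were higher and 11.8% lower. With IHK-44, 93 members were higher and 16 lower, against 7.74% and 9.21% of all genes. With A485, 4 were higher and 1 lower, against 0.113% and 0.158%. JQAD and NT called no member and no gene (0.0% each), with 2 and 1 members under an unadjusted p of 0.05, and DESeq2 also called none. The members' median log2 change was 0.22 with A485, 0.21 with dCBP and 0.25 with IHK-44, and that of the other genes -0.02, 0.00 and 0.00. All 104, 109 and 5 called members moved the same way in all 4 libraries of dCBP, IHK-44 and A485. The same libraries gave the calls, so this is a description and no separate support. These counts share the DMSO libraries with the choice of members and with each other, so agreement between compounds is not read from them.

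The DMSO comparison leans on 2 solvent libraries. Without the DMSO 6 h library, dCBP kept 4 higher and 1 lower members and IHK-44 7 higher and 1 lower, and without DMSO 2 h the higher counts were 37 and 35. On deposited TPM, which is scaled over all quantified rows and not only coding ones, limma on log2(TPM + 1) gave 45 lower and 1 higher with dCBP, 44 lower and 0 higher with IHK-44, and 0 lower and 21 higher with A485. Coding rows held 39.3% to 44.5% of the TPM in the DMSO and NT libraries, 27.9% to 35.4% with dCBP, 31.2% to 34.6% with IHK-44 and 43.0% to 53.9% with A485. On that scale the median of all genes lay at -0.25, -0.27 and 0.26 (dCBP, IHK-44, A485). The members' own medians were -0.15, -0.12 and 0.46. Relative to all genes the members' median stood 0.11, 0.14 and 0.21 higher, while in the count fit it stood 0.15, 0.21 and 0.21 above that of all genes. The files hold no spike-in that would set an absolute scale. Each rise or fall in the count fits is thus relative to the coding genes, and each on TPM to all quantified rows.

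JQAD, which called no gene against DMSO, gave a comparison of 4 libraries against 4, with no library of the rule on either side. The spread and the scaling still came from the fit over all libraries. Against it 128 members were higher and 22 lower with dCBP, where 18.9% of all tested genes were higher and 16.4% lower. IHK-44 had 151 higher and 25 lower (16.4% and 16.1% of all), and A485 75 higher and 3 lower (3.21% and 1.7%, together 4.91%). Of the 348 members 36.8%, 43.4% and 21.6% were thus higher. Of the 9453 other genes at the limit 17.1%, 15.7% and 2.61% were. These shares are not matched for level: the median in the controls was 25.5 CPM for members and 50.8 for the other genes. The part of level in the difference was not tested. The members' median changes were 0.22, 0.24 and 0.23 in the order dCBP, IHK-44, A485. These comparisons share the JQAD libraries, so agreement between compounds is not read from them. On TPM the direction again turned with 2 compounds: limma called 75 members lower and 5 higher with dCBP, 78 lower and 4 higher with IHK-44, and 4 lower and 190 higher with A485. There the members' medians were -0.15, -0.13 and 0.46 and those of all genes -0.27, -0.28 and 0.24. In the count fit, leaving out any 1 library moved the dCBP and IHK-44 counts by less than 1.5 times (96 to 152 and 112 to 166 higher), but the A485 count ran from 3 without its 1000 nM 6 h library to 104. It was 5 without A485 1000 nM 2 h, 9 without JQAD 1000 nM 6 h, 34 without JQAD 1000 nM 2 h and 28 without JQAD 100 nM 2 h.

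The deepest fall was that of ZNF608 on chromosome 5, a relative of ZNF609. The DMSO and NT libraries held 56.8 and 60.8 CPM at 2 h and 34.1 and 35.9 at 6 h, and the JQAD libraries 57.9 and 59.6 at 2 h and 27.6 and 36.0 at 6 h. With dCBP it stood at 12.8 and 19.1 CPM at 2 h and 4.79 and 4.39 at 6 h (1000 nM, then 100 nM). With IHK-44 it stood at 19.9 and 25.2 at 2 h and 2.77 and 4.58 at 6 h. No dCBP or IHK-44 library reached the lowest control or JQAD library. The log2 change against DMSO was -2.42 ± 0.48 (SE, edgeR adjusted p 0.00464) with dCBP and -2.18 ± 0.47 (0.00842) with IHK-44. With A485 the libraries held 18.9 and 31.9 CPM at 2 h and 5.42 and 23.7 at 6 h, and the change of -1.27 ± 0.47 did not pass (adjusted p 0.172).

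ZNF608 was also the 1 member that differed between the doses of a compound. The 1000 nM libraries of A485 were below the 100 nM ones at both times, by -1.43 ± 0.28 on the log2 scale (edgeR adjusted p 0.0398), in a fit where 0.929% of all genes were called. Leaving the low-count filter out gave 3 members and DESeq2 4. No member differed between the doses of dCBP, IHK-44 or JQAD (0.0%, 0.107% and 0.0% of all genes), with 4, 6 and 4 members under an unadjusted p of 0.05 and 0, 1 and 0 called by DESeq2. The median difference between 1000 nM and 100 nM was 0.12 with A485, 0.05 with dCBP and 0.01 with IHK-44, against -0.02, -0.01 and 0.00 for the other genes.

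ZNF217 was the highest-level gene among the falls. It held 357, 328, 391 and 326 CPM in DMSO 2 h, DMSO 6 h, NT 2 h and NT 6 h, and 298 to 359 in the JQAD libraries. With dCBP it fell to 98.3 and 115 at 2 h and 119 and 91.1 at 6 h (1000 nM, then 100 nM), by 1.80 on the log2 scale (SE 0.31, edgeR adjusted p 0.00239). With IHK-44 it stood at 75.4 and 120 at 2 h and at 142 and 249 at 6 h, all below the controls, a change of -1.38 ± 0.32 (0.011). With A485 it stood at 128 and 262 CPM at 2 h and 292 and 343 at 6 h, so the groups overlapped and the change did not pass (-0.52 ± 0.32, adjusted p 0.385). ZNF217 was the 1 member called between A485 and dCBP, higher with A485 by 1.29 ± 0.27 (edgeR adjusted p 0.036), where 0.724% of all genes were called.

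The other falls were on lower levels. ZNF668, which overlaps ZNF646 in RefSeq and is uncertain for that reason, held 54.0 to 60.0 CPM in the controls, 13.2 to 34.3 with dCBP and 12.4 to 28.0 with IHK-44 (log2 changes -1.43 and -1.75, edgeR adjusted p 0.00453 and 0.0014). ZNF804A, whose locus is linked to schizophrenia risk, held 40.5 to 46.6 CPM in the controls, 21.1 and 30.6 at 2 h and 11.7 and 10.4 at 6 h with dCBP, and 27.8 and 32.6 at 2 h and 9.38 and 19.05 at 6 h with IHK-44. Its changes were -1.42 ± 0.34 (0.0101) and -1.15 ± 0.33 (0.0294). ZNF365 held 7.81 to 11.1 CPM in the controls and 2.41 to 4.88 with dCBP (-1.11 ± 0.28, edgeR adjusted p 0.0129). In all 3 genes neither compound's libraries overlapped the controls.

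ZNF556 on chromosome 19 was the 1 member that fell with A485. It held 15.4 to 21.7 CPM in the controls, 7.501 and 10.1 at 2 h and 4.98 and 8.26 at 6 h with A485, 7.23 to 10.4 with dCBP and 4.88 to 8.39 with IHK-44. The log2 changes were -1.13 ± 0.20 (edgeR adjusted p 0.0311), -0.97 ± 0.20 (0.00531) and -1.33 ± 0.20 (0.000742). None of the 12 libraries reached the lowest control. The A485 call was lost without either DMSO library, without either 1000 nM A485 library and without each of 4 libraries of other compounds.

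The rises were shallower. On TPM none of the 5 rises named with IHK-44 passed, nor did those of ZNF713, ZNF620, ZNF784 and ZNF814 with dCBP. Without DMSO 6 h, 19 of the 20 calls named with dCBP were lost, all but ZNF217, and 8 of the 10 with IHK-44, all but ZNF556 and ZNF675. ZNF641 on chromosome 12 was the steepest with dCBP and with IHK-44. It held 8.64, 8.87, 7.56 and 9.78 CPM in DMSO 2 h, DMSO 6 h, NT 2 h and NT 6 h and 7.69 to 9.95 with JQAD. With dCBP it held 14.0 and 16.5 at 2 h and 31.0 and 29.7 at 6 h, with IHK-44 16.5 and 12.8 at 2 h and 28.2 and 29.1 at 6 h, and with A485 17.1 and 11.9 at 2 h and 26.9 and 18.1 at 6 h. All 12 libraries lay above the controls. The log2 change was 1.18 ± 0.20 (edgeR adjusted p 0.0022) with dCBP and 1.11 ± 0.20 (0.00288) with IHK-44. With A485 it was 0.95 ± 0.20 (0.0595), and against JQAD that difference passed at 0.97 ± 0.16 (0.00872).

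ZNF713, a gene at a fragile site on chromosome 7, held 7.61 to 9.74 CPM in the controls, 14.6 and 17.7 at 2 h and 24.8 and 21.5 at 6 h with dCBP, and 14.0 to 22.1 with IHK-44. Its log2 changes were 1.10 ± 0.23 (edgeR adjusted p 0.00617) and 0.99 ± 0.23 (0.0127). ZNF620 on chromosome 3 held 7.02 to 9.49 CPM in the controls, 11.9 to 21.2 with dCBP and 13.5 to 22.2 with IHK-44 (0.98 ± 0.20 and 1.08 ± 0.20, adjusted p 0.00478 and 0.00274). Neither gene's libraries overlapped the controls, and in both the 6 h libraries stood above the 2 h ones. ZNF784 rose by 0.90 with dCBP (adjusted p 0.00805), and ZNF675 and ZNF615 rose by 1.01 and 1.00 with IHK-44 (0.00192 and 0.00517). ZNF814 was at 0.91 with dCBP (0.0423), but its NT libraries (14.7 and 11.5 CPM) overlapped the dCBP ones (11.9 to 22.8), and against JQAD the adjusted p was 0.119.

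The 4 rises with A485 were smaller in size and tighter in spread. ZNF264 held 69.2 to 83.2 CPM in the controls, 127 and 108 at 2 h and 132 and 98.7 at 6 h with A485 (1000 nM, then 100 nM). The change was 0.57 ± 0.10 (edgeR adjusted p 0.0299), with 0.59 ± 0.10 for both dCBP (0.00163) and IHK-44 (0.0014). ZNF225 changed by 0.73 ± 0.14 (0.0413), ZNF142 by 0.55 ± 0.09 (0.0299) and ZNF398 by 0.39 ± 0.08 (0.0477). In ZNF264 and ZNF225 the A485 libraries lay above all 4 controls. All 5 A485 calls were lost without either DMSO library and without either 1000 nM A485 library, and DESeq2 called 33 members higher and 2 lower. Against JQAD all 5 genes were called. The ZNF398 and ZNF556 calls against DMSO were also lost on TPM, and that of ZNF398 with the size factors of DESeq2 and without the low-count filter. ZNF225 and ZNF398 also lost theirs without single libraries of dCBP, IHK-44 or JQAD.

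**Figure D2:**
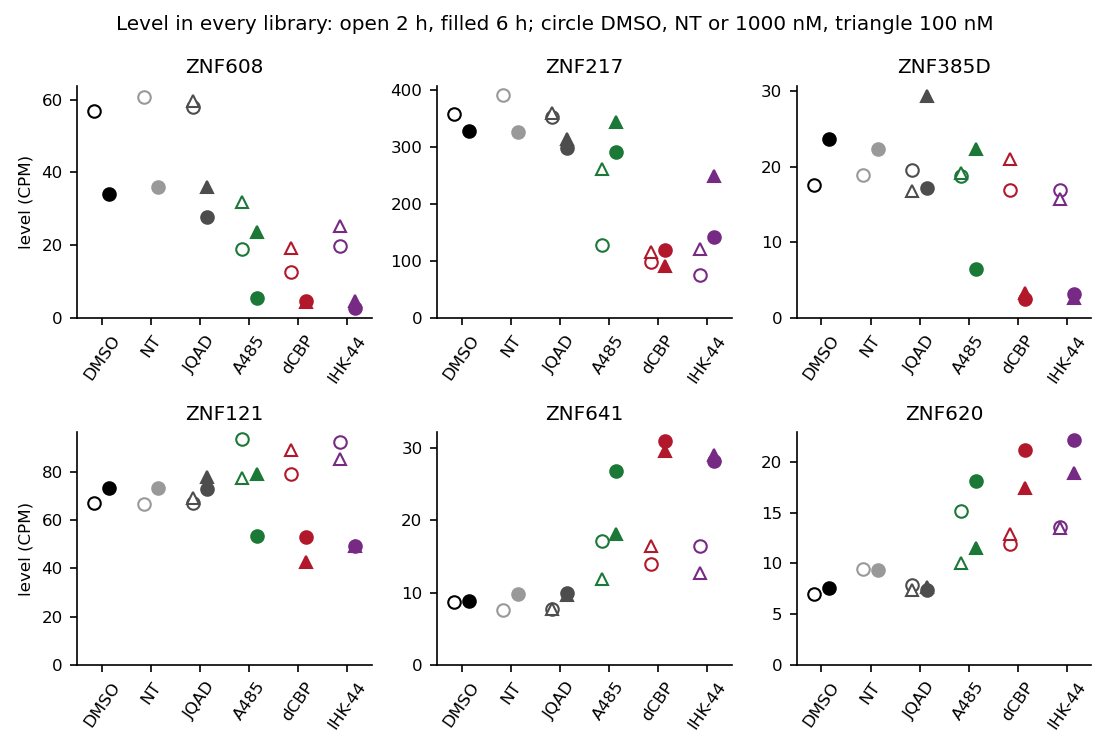
Level in CPM (y axis, from 0) of 6 ZNF genes in each of the 20 libraries, by compound (x axis). Open symbols are 2 h and filled symbols 6 h, circles DMSO, NT or 1000 nM and triangles 100 nM. ZNF608 and ZNF217 lie low with dCBP and IHK-44, ZNF385D and ZNF121 fall at 6 h, and ZNF641 and ZNF620 lie above DMSO and NT (7.02 to 9.78 CPM) with A485, dCBP and IHK-44.

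The members were also counted by role, against DMSO, where 11.8% of all tested genes were higher and 11.8% lower with dCBP and 7.74% and 9.21% with IHK-44. The lists are short, and nothing particular to a role is read from their shares. Of 26 coregulator members 5 rose and 5 fell with dCBP (19.2% each) and 3 rose and 4 fell with IHK-44 (medians -0.06 and -0.12). Besides ZNF217 and ZNF608, ZNF335, a part of a histone methyltransferase complex and a microcephaly gene, rose by 0.62 (edgeR adjusted p 0.00496) with dCBP, from 47.3 to 57.0 CPM in the controls to 74.7 to 101. ZNF592, a partner of ZMYND8, rose by 0.33 (0.00708), a change that was -0.02 with limma on log2(TPM + 1).

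Of 12 members tied to retroelements, imprinting or KRAB repression 4 rose with dCBP (33.3%) and 1 with IHK-44 (8.33%, near the share of all genes), none was called lower, and the medians were 0.19 and 0.27. ZNF445, which protects imprints, rose by 0.48 (edgeR adjusted p 0.0045), from 73.0 to 85.1 CPM in the controls to 107 to 130 with dCBP. ZNF133 rose by 0.70 (0.0147) and ZNF331 by 0.47 (0.0229). ZNF10, the source of the KRAB domain used in engineered repressors, rose by 0.56 (0.048), a call lost when most single libraries were left out, both DMSO and all 4 dCBP libraries among them. Of 12 members that act on RNA or proteins 1 rose with dCBP, namely ZNF346, which binds double-stranded RNA (0.42). With dCBP ZNF106 (-0.37, adjusted p 0.0621), ZNF706 (-0.27) and ZNF326, which couples transcription to splicing (-0.28), did not pass. With IHK-44 ZNF346 was called higher (0.35, edgeR adjusted p 0.0345) and ZNF706 lower (-0.37, 0.039). On TPM the dCBP calls of ZNF335, ZNF592, ZNF445, ZNF133, ZNF331, ZNF10 and ZNF346 were all lost.

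Of 21 genes of the corepressor machinery that KRAB proteins use, 3 fell with dCBP and 3 with IHK-44 (14.3% each, near the 11.8% and 9.21% of all genes called lower) and none was called higher. ATF7IP, the partner of SETDB1, fell by 0.70 (edgeR adjusted p 0.0107) and 0.63 (0.0214), the deacetylase HDAC2 by 0.42 (0.0126) and 0.32 (0.0455), and CBX3, an HP1 protein, by 0.44 (0.0317) with dCBP. TASOR, of the HUSH complex, was at -0.28 (0.134). TRIM28 itself held a mean of 810 CPM in the controls and changed by 0.11 with dCBP (0.407) and 0.05 with IHK-44 (0.758). SETDB1 changed by -0.10 (0.326) and -0.14 (0.206).

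Split by time, the members were already higher at 2 h in the count fit, and these comparisons were not run on TPM. Against JQAD at 2 h, 85 members were higher and 4 lower with dCBP, when 3.21% of all tested genes were higher and 2.33% lower. With IHK-44, 92 were higher and 5 lower (2.34% and 2.11%). Of the 425 genes called higher with dCBP at 2 h the members thus made up 85. The median change was 0.29 and 0.33, and that of the other genes -0.02 and 0.00. A485 had a median of 0.26, but 0 members passed in edgeR (0.0226% of all genes did), with 157 members under an unadjusted p of 0.05 and 19 called by DESeq2.

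These 2 h calls compare 2 libraries with 2, and a single library can end them. Without dCBP 1000 nM, dCBP 100 nM, JQAD 1000 nM or JQAD 100 nM at 2 h, 0, 0, 0 and 1 members were called higher with dCBP. Without IHK-44 1000 nM, IHK-44 100 nM, JQAD 1000 nM or JQAD 100 nM at 2 h, 0, 32, 4 and 18 were called higher with IHK-44. Each of those fits sets a lone library against a pair and assumes that it varies like the other groups.

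At 6 h the members' share of higher calls was closer to that of all genes with dCBP and IHK-44, but not with A485. Of the members 24.7%, 31.6% and 16.1% were higher, in the order dCBP, IHK-44, A485. Against JQAD 86 were higher and 50 lower with dCBP (21.7% and 21.3% of all genes) and 110 higher and 39 lower with IHK-44 (20.3% and 21.4%). With A485 56 were higher and 7 lower (6.13% and 7.82%). The medians were 0.10, 0.19 and 0.23, in the order dCBP, IHK-44, A485, so the median with A485 was near its 2 h value and that with dCBP was lower. The A485 count of 56 fell to 1 without its 1000 nM library and to 3 without JQAD 1000 nM at 6 h. The dCBP count of 50 lower was 78 without dCBP 1000 nM 6 h and 32 without JQAD 100 nM 6 h, and the IHK-44 count of 39 lower was 24 without IHK-44 1000 nM 6 h. The 7 lower with A485 were 0 without A485 1000 nM 6 h and 22 without A485 100 nM 6 h. The IHK-44 count of 110 fell to 59 without its own 1000 nM library and to 61 without that JQAD library.

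**Figure D3:**
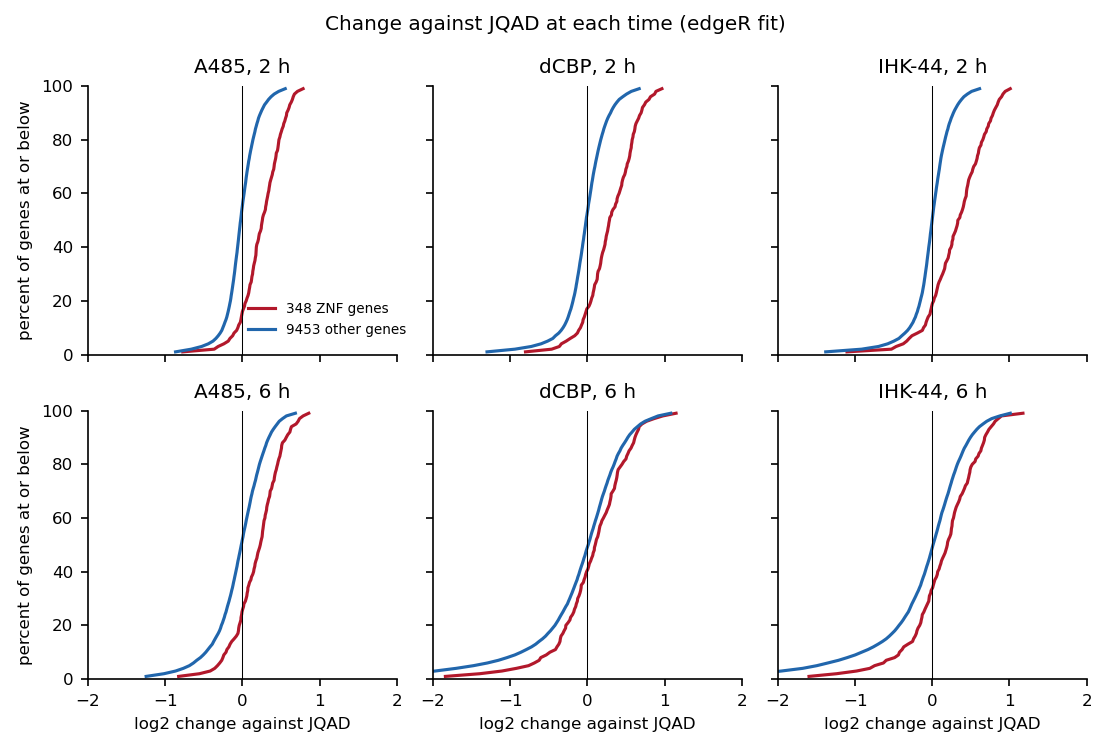
Percent of genes (y axis) at or below each log2 change against JQAD (x axis, edgeR fit), for 348 ZNF genes and 9453 other genes, with 3 compounds in columns and 2 h and 6 h in rows. The 2 h ZNF curves lie to the right of the other genes, with medians of 0.26, 0.29 and 0.33 against -0.02, -0.02 and 0.00, and the 6 h curves with dCBP lie close together (0.10 against 0.01).

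The 2 h and the 6 h comparison contrast different libraries, and their calls were matched. Both came from the same fit over all libraries, which gave each gene the same spread and the same scaling at both times. A gene with a low spread can pass more easily at both times, so the calls are not independent. Of the 85 members higher at 2 h with dCBP, 40 were also higher at 6 h, which is 47.1% of the 2 h list and 46.5% of the 86 at 6 h. For IHK-44 it was 58 of 92, which is 63.0% of the 2 h list and 52.7% of the 110. Of all members 24.7% were higher at 6 h with dCBP and 31.6% with IHK-44. The part of the shared fit in these overlaps was not tested. In each compound 2 members higher at 2 h were lower at 6 h. The change of 65 of the 85 and 78 of the 92 was nearer 0 at 6 h, in lists picked on their 2 h value. All 4 members lower at 2 h with dCBP and all 5 with IHK-44 were still lower at 6 h, where they made up 8.0% and 12.8% of the lower members.

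**Figure D4:**
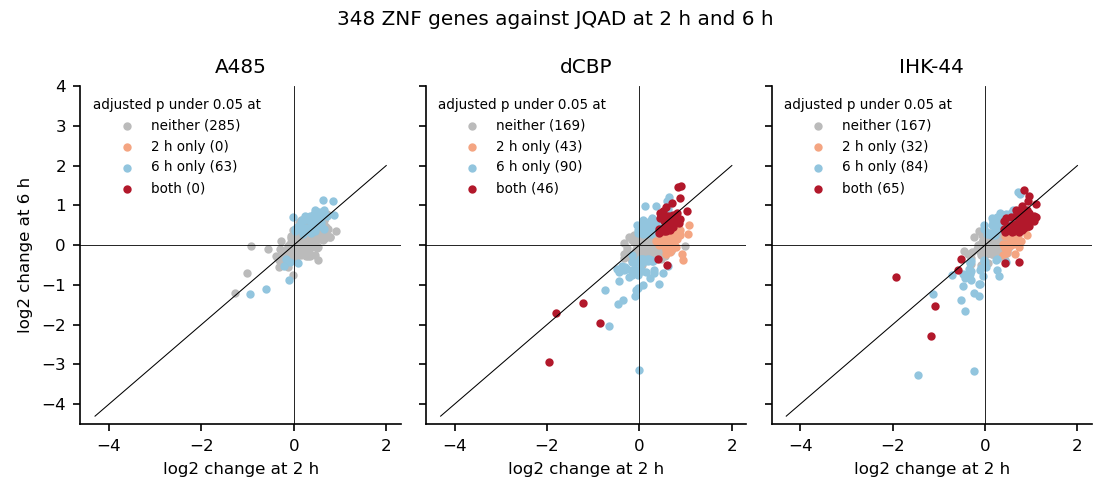
Log2 change against JQAD at 2 h (x axis) and 6 h (y axis) of 348 ZNF genes with A485, dCBP and IHK-44, coloured by the time at which the edgeR adjusted p was under 0.05, with a line of equal change. With dCBP 46 genes passed at both times, 43 at 2 h and 90 at 6 h alone, and with IHK-44 65, 32 and 84.

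Setting 6 h against 2 h within a compound contrasts only the libraries of that compound. JQAD and the controls still entered the fit that gave the spread and the scaling. With dCBP 105 members were lower at 6 h and 18 higher, against 17.3% and 15.0% of all tested genes, and with IHK-44 84 were lower and 20 higher, against 17.8% and 14.1%. The median change was -0.22 and -0.15, and that of the other genes 0.00 and -0.02. With A485 15 were lower and 8 higher (4.14% and 3.49%, together 7.63%), and the lower count ran from 0 without A485 100 nM 2 h to 27 without dCBP 1000 nM 6 h. In DMSO and NT together and in JQAD no member changed (0.0754% and 0.083% of all genes did), with 36 and 41 members under an unadjusted p of 0.05 and 0 and 1 called by DESeq2. Without dCBP 100 nM 2 h or 6 h the lower count was 46 or 53, and without IHK-44 1000 nM 6 h or 100 nM 2 h it was 50 or 54.

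The test of whether the response itself depended on time, against DMSO and NT at the same times, called fewer genes. With dCBP 26 members were more negative at 6 h and 2 more positive (6.4% and 2.66% of all genes, together 9.06%), and with IHK-44 25 and 0 (7.76% and 2.13%, together 9.89%). Of the members 7.47% and 7.18% were thus more negative at 6 h, near the share of all genes. No member passed with A485 (0.00754% of all genes) or JQAD (0.0%), with 24 and 5 members under an unadjusted p of 0.05 and none called by DESeq2. The count with dCBP was 2 without dCBP 100 nM 2 h, 5 without DMSO 2 h, 8 without NT 6 h, 10 without DMSO 6 h, 13 without NT 2 h, 16 without dCBP 1000 nM 2 h and 72 without dCBP 1000 nM 6 h. The count of 25 with IHK-44 was 5 without DMSO 2 h or IHK-44 1000 nM 6 h, 6 without NT 6 h, 7 without DMSO 6 h or IHK-44 100 nM 2 h, 8 without NT 2 h and 9 without IHK-44 1000 nM 2 h. It was 14 without dCBP 100 nM, JQAD 1000 nM or JQAD 100 nM at 2 h, and 40 without dCBP 1000 nM 6 h.

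ZNF385D on chromosome 3 had the largest dependence on time. It held 17.5, 23.6, 18.9 and 22.3 CPM in DMSO 2 h, DMSO 6 h, NT 2 h and NT 6 h. At 2 h it held 16.9 and 21.0 with dCBP and 16.9 and 15.7 with IHK-44, near the controls. At 6 h it held 2.58 and 3.26 with dCBP and 3.13 and 2.62 with IHK-44, while JQAD held 17.2 and 29.3. The difference of the 6 h and the 2 h response was -3.13 ± 0.57 (edgeR adjusted p 0.00619) with dCBP and -2.95 ± 0.56 (0.00403) with IHK-44. With 1000 nM A485 it held 18.7 at 2 h and 6.54 at 6 h, and with 100 nM 19.1 and 22.3.

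ZNF121 on chromosome 19 crossed the control level between the times. DMSO and NT held 66.7 to 73.5 CPM. At 2 h dCBP held 79.4 and 89.2 and IHK-44 92.6 and 85.4, all above the controls, and at 6 h they held 53.1 and 42.6 and 49.2 and 49.3, all below. The dependence on time was -1.06 ± 0.22 (edgeR adjusted p 0.00907) with dCBP and -1.11 ± 0.22 (0.00466) with IHK-44. With 1000 nM A485 it went from 94.0 to 53.4, and with 100 nM it held 77.5 and 79.2.

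ZNF202, a repressor of lipid genes, showed the same order with dCBP, from 47.2 and 52.6 CPM at 2 h to 29.0 and 27.2 at 6 h against 35.3 to 44.3 in the controls (-0.85, edgeR adjusted p 0.00783). ZNF880 went from 10.5 and 12.7 to 5.38 and 4.04 (-1.37, 0.00783), and ZNF783 with IHK-44 from 32.9 and 31.5 to 18.5 and 18.5 against 22.8 to 26.2 in the controls (-1.02, 0.0053). The ZNF202 and ZNF880 calls were lost without dCBP 100 nM 2 h. ZNF704, the most abundant member by read count, held 718 to 854 CPM in the controls, 733 and 858 at 2 h with dCBP and 403 and 350 at 6 h (-1.15 ± 0.23, 0.00824). With IHK-44 it held 700 and 738 at 2 h and 363 and 435 at 6 h (-0.93, 0.017). The 2 members with a more positive response at 6 h with dCBP, ZNF219 (0.76, 0.0312) and ZNF497 (0.74, 0.0127), lie outside the rule for named genes and were chosen after their values were seen.

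Chromosome 19 held 155 of the 348 members, 44.5%, against 5.38% of the other genes at the limit. These members were lower in level, with a median of 19.5 CPM against 32.6 for members elsewhere. Against JQAD their median change was 0.32 with A485, 0.27 with dCBP and 0.39 with IHK-44. Members elsewhere were at 0.19, 0.15 and 0.17, and the 505 other genes on chromosome 19 at -0.07, 0.07 and 0.01. With IHK-44 90 of the 155 were higher and 7 lower, and of the 193 elsewhere 61 were higher and 18 lower, where 16.4% and 16.1% of all genes were. The difference between the positions was not tested.

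At 2 h the chromosome 19 members stood at 0.45 with dCBP and 0.49 with IHK-44 against JQAD, and those elsewhere at 0.20 and 0.17. From 2 h to 6 h they moved by -0.33 and -0.25, and those elsewhere by -0.13 and -0.06. With dCBP 60 of the 155 and 45 of the 193 were lower at 6 h than at 2 h, and with IHK-44 52 and 32. In DMSO and NT the same medians were -0.05 and -0.01. The order showed in 3 of the 4 level bins. At 8 to 16 CPM the change with dCBP at 2 h was 0.55 on chromosome 19, 0.34 elsewhere and 0.12 in the other genes, and at 16 to 32 CPM it was 0.47, 0.26 and 0.07. At 32 to 64 CPM it was 0.22, 0.22 and 0.01, where the 2 groups of members were level, and at 64 CPM or more, with 12 members on chromosome 19, it was 0.18, -0.02 and -0.07.

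**Figure D5:**
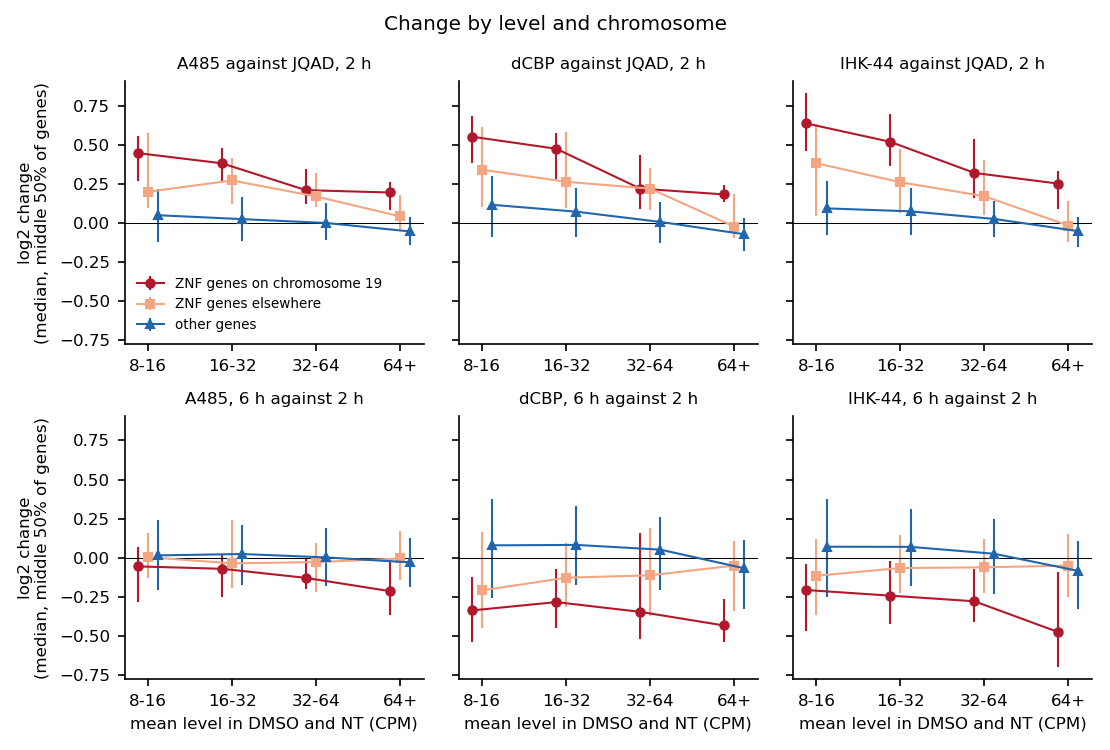
Median log2 change with a bar over the middle 50% of genes (y axis) by mean level in DMSO and NT (x axis, 4 bins in CPM), for ZNF genes on chromosome 19, ZNF genes elsewhere and other genes. The top row is the change against JQAD at 2 h, where the lowest bin with dCBP stands at 0.55, 0.34 and 0.12 in that order. The bottom row is 6 h against 2 h, where chromosome 19 members lie lowest with dCBP (-0.28 to -0.43) and IHK-44 (-0.21 to -0.48).

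Along chromosome 19 (GRCh38.p14), members whose starts lie within a megabase of the next were taken as runs. In the run from 19668153 to 24129968, with 21 members, all 21 lay above 0 against JQAD with each of A485, dCBP and IHK-44, with medians of 0.43, 0.38 and 0.49. With IHK-44 15 of them passed. The run from 36214723 to 37719761 (18 members) had medians of 0.44, 0.42 and 0.55, and the run from 43596392 to 44500522 (15 members) 0.43, 0.40 and 0.51. The run from 51571283 to 53580269 (28 members) had 0.35, 0.29 and 0.47. The largest run, from 55476617 to 58489533 (46 members), had lower medians of 0.18, 0.16 and 0.23. The run from 2841475 to 2944971 went the other way, since its 3 members ZNF555, ZNF556 and ZNF77 all lay below 0, with medians of -0.32, -0.43 and -0.60. ZNF536, a repressor of neuronal differentiation that stands alone between the runs, was at -0.16, -0.57 and -0.54. Neighbours in a run are related in sequence and position, so they are not independent of each other. The compounds also share the JQAD libraries, so agreement between them is not read here.

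Level and promoter letters were set beside the change. Across the 348 members Spearman's rho between the control level and the change against JQAD was -0.41 with A485, -0.44 with dCBP and -0.47 with IHK-44, and across the 9453 other genes -0.23, -0.33 and -0.32. Across the 305 members with a window, rho with the CG count was -0.20, -0.08 and -0.16, and across 7860 other genes 0.05, 0.04 and 0.00. For the change from 2 h to 6 h with dCBP, rho with the CG count was 0.19 among members. These are descriptions across genes, which share libraries and depth and are not replicates, and the level enters with the same controls that chose the members.

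The compounds were compared among themselves over 3 pairs. edgeR called no member between dCBP and IHK-44 (0.0% of all genes), with 33 members under an unadjusted p of 0.05 and none called by DESeq2. Between A485 and dCBP edgeR called ZNF217 alone, with 50 members under an unadjusted p of 0.05, and DESeq2 called 9. Between A485 and IHK-44 edgeR called 2 members (57 under an unadjusted p of 0.05, 7 called by DESeq2), ZNF287 (-0.48, edgeR adjusted p 0.0425) and ZNF329 (-0.40, 0.0434), both lower with A485, where 0.882% of all genes were called. Both lie outside the rule for named genes and were chosen after their values were seen. The median difference over members was -0.05 between dCBP and IHK-44, 0.03 between A485 and dCBP and -0.02 between A485 and IHK-44. A difference that misses the threshold does not show that the compounds acted alike on a gene.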

How the data were processed

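Expected counts (reads estimated per gene), CPM (expected counts scaled to 1000000 over the coding rows), TPM and FPKM of 18980 coding genes in 20 RNA-seq libraries were used as deposited by the authors. Of the 32 samples in the series, 11 of ChIP-seq and 1 of ChRO-seq were not analysed here. Per the submitters' processing notes, STAR 2.5.3a, RSEM 1.3.3 and hg38 were named, and the strand setting is not given in the sources used here, so overlapping and antisense genes cannot be told apart. Of the deposited expected counts 88.2% were whole numbers.

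Members were ZNF genes with a mean of at least 8 CPM in the DMSO and NT libraries. The members and gene lists were chosen with earlier results of these data known. Expected counts were rounded and fitted with edgeR 4.0.16 (R 4.3.3), TMM scaling and filterByExpr, with a quasi-likelihood test and Benjamini-Hochberg adjustment over all genes tested. A model with a level per compound, DMSO or NT and a time term (13260 genes, 13 residual degrees of freedom) gave the compound comparisons. A level per compound and time with DMSO and NT as 1 control (10 degrees of freedom) gave the time comparisons, and a model with compound, time and dose (13137 genes, 4 degrees of freedom) gave the dose comparisons. Single libraries were compared as log2(CPM + 1) ratios, without a test. The scripts were tested on simulated data.

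Named genes were the 5 largest falls and rises among called members per compound against DMSO with 1 sign in all 4 libraries, the 5 highest in FPKM, the 3 nearest the limit on either side, the 3 smallest adjusted p per compound for time and dose, and up to 4 per role list by the p with dCBP. Alternatives were DESeq2 1.42.0, its size factors, no filter, limma 3.58.1 on log2(TPM + 1), pooled controls, other level limits, a pseudocount of 0.1, NT as control, a 1.5-fold threshold and leaving out each library. Promoter windows are RefSeq's on GRCh38.p14.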

Additional observations from a re-analysis of the deposited data

Results flagged for a closer look

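The response of 28 ZNF genes to dCBP and of 25 to IHK-44 differed between 2 h and 6 h in the edgeR interaction test, 26 and 25 of them towards lower values at 6 h. These were 8.05% and 7.18% of the members, no more than the 9.06% and 9.89% of all tested genes, so nothing particular to ZNF genes is read from the counts. No ZNF gene passed this test with A485 or JQAD, and the difference between compounds was not tested.

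Reads outside the coding rows took a mean of 9.44% of quantified reads in the dCBP libraries and 8.89% in those of IHK-44. The 4 DMSO and NT libraries had a mean of 6.10% and a highest value of 6.43%. These rows were not compared themselves, but they enter the scale of the deposited TPM.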

How the results depend on the processing

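Direction depended on scale: with dCBP and IHK-44 most called members were higher in the count fits and lower on TPM. Each condition had 1 library, and its depth limits the precision of low genes most. No paired analysis was possible because each condition had 1 library, so the groups share fewer than 2 replicate numbers. Of the alternatives tried for single named genes, called or not, 974 kept direction and side of the threshold, 131 lost a call, 10 gained one and 1 reversed (ZNF592 with dCBP against DMSO, -0.023 with limma on log2(TPM + 1)). The comparisons split by time got their alternatives after the data were seen. The cause of each shift was not tested.

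Against DMSO, DESeq2 called 2 lower and 33 higher with A485, TPM 0 and 21, and pooled controls 6 and 70. With dCBP, TPM called 45 lower and 1 higher and pooled controls 29 lower. With IHK-44, TPM called 44 and 0 and pooled controls 29 and 145. A limit of 4 CPM gave 2 lower with A485, and a limit of 16 CPM 53 higher with dCBP and 58 with IHK-44. Against JQAD, DESeq2 called 6 lower with A485, TPM 190 higher with A485, 75 lower and 5 higher with dCBP and 78 and 4 with IHK-44, and a limit of 16 CPM 46, 76 and 94 higher with A485, dCBP and IHK-44. At 2 h against JQAD, DESeq2 called 1 lower and 18 higher with A485, 8 lower with dCBP and 10 with IHK-44. There the size factors gave 8 lower with IHK-44, and no filter 4 lower and 26 higher with A485, 9 lower with dCBP and 11 with IHK-44.

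For dependence on time DESeq2 called 4 higher with dCBP and 1 with IHK-44, and no filter 1 higher with IHK-44. For dose DESeq2 called 4 with A485 and 1 with IHK-44, and no filter 3 with A485. With NT as control the distance from genes of like level with 1000 nM IHK-44 at 2 h was 0.21. At least 2-fold changes at 1000 nM and 6 h were, on TPM, 3 lower and 38 higher with A485, 10 and 2 with dCBP and 14 and 0 with IHK-44, and after rescaling to a median of 0, 6 and 3, 10 and 5, and 12 and 5. They were 14 higher with A485 at a limit of 4 CPM, and at 16 CPM 4 lower and 2 higher with A485, 9 and 5 with dCBP and 10 and 4 with IHK-44. At 1.5-fold they were 98 higher with A485, 18 lower and 85 higher with dCBP and 18 and 94 with IHK-44.

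Leaving out each library in turn gave, against DMSO, 0 to 2 lower and 0 to 27 higher with A485, 1 to 23 and 4 to 108 with dCBP, 1 to 24 and 7 to 130 with IHK-44 and 0 to 0 with JQAD. Against JQAD it gave 1 to 7 and 3 to 104 with A485, 15 to 30 and 96 to 152 with dCBP, and 18 to 29 and 112 to 166 with IHK-44. At 2 h it gave 0 to 3 and 0 to 28 with A485, 0 to 8 and 0 to 111 with dCBP, and 0 to 11 and 0 to 128 with IHK-44. At 6 h it gave 0 to 22 and 1 to 92, 32 to 78 and 60 to 95, and 24 to 44 and 59 to 123. For 6 h against 2 h it gave 0 to 27 and 0 to 18, 46 to 141 and 5 to 34, and 50 to 101 and 8 to 29. For dependence on time it gave 0 to 6 and 0 to 1 with A485, 2 to 72 and 0 to 12 with dCBP, and 5 to 40 and 0 to 5 with IHK-44. Without IHK-44 1000 nM 6 h its higher count against DMSO was 47.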

Other observations

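Zinc finger genes outside the ZNF symbols, at 8 CPM or more, were set beside the ZNF genes against JQAD in the count fit, with values in the order A485, dCBP, IHK-44. The 13 ZFP genes had median log2 changes of 0.35, 0.28 and 0.41, and with IHK-44 9 of the 13 passed as higher and 0 as lower. The 12 ZSCAN genes, whose SCAN domain pairs such proteins, had 0.26, 0.32 and 0.32, and 8 of the 12 were higher with dCBP and 8 with IHK-44. The 6 ZKSCAN genes, which hold SCAN and KRAB domains, had 0.31, 0.34 and 0.35, and all 6 were higher with IHK-44. The 37 ZBTB genes, whose BTB domain binds other corepressors, had 0.07, -0.02 and -0.06, with 5 higher and 10 lower with IHK-44. Of all tested genes 18.9% were higher and 16.4% lower with dCBP, and 16.4% and 16.1% with IHK-44. The differences between these families were not tested.

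The 117 ZNF genes below 8 CPM that passed the count filter had medians of 0.47, 0.55 and 0.56 against JQAD. With dCBP 48 of them were higher and 3 lower, and with IHK-44 55 and 2. Of all tested genes 18.9% were higher and 16.4% lower with dCBP, and 16.4% and 16.1% with IHK-44. Other genes below 8 CPM were not set beside them, so the part of level in these values was not tested. The 274 members with whole counts in every library had medians of 0.24, 0.23 and 0.26 and the 74 others 0.20, 0.18 and 0.20.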
